A study of Mus musculus with 6 samples.

Results

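The cytosolic ribosomal protein genes were described in fully-grown mouse oocytes that carry a conditional knockout of Uba3 (Uba3 cKO) and in control oocytes. The product of Uba3 is the catalytic chain of the E1 that loads NEDD8, a small relative of ubiquitin best known for its attachment to cullins. The genes were chosen by symbol, with earlier results of these data known. The rule took Rps or Rpl followed by a number and at most one a or x, plus Rpsa, Rplp0, Rplp1 and Rplp2. This rule found 76 of the 28738 genes in the deposited table, 30 of the small and 46 of the large ribosomal subunit, on 19 chromosomes. The oocytes were at the germinal vesicle stage, still in meiotic prophase arrest, and RNA was sequenced from 3 Uba3 cKO and 3 control pools of about 150 cells. Per the labels, all 6 libraries share the mixed strain background C57/Bl6/N;129SvEv7. The Cre driver, the deleted part of Uba3, the allele that control animals carry and the age of the animals are not stated in the sources used here. No label says whether each pool had its own animals, so the p-values refer to the spread between pools, which may be technical.

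Each ribosome is built from ribosomal RNA and nearly always a single copy of each ribosomal protein, and the mRNAs of these proteins commonly begin with a run of pyrimidines, the 5′ terminal oligopyrimidine tract, through which mTOR and Larp1 control their translation. Oocytes make and store ribosomes while they grow, and transcription is largely silent once they are fully grown, so the mRNA measured there is mostly stored mRNA. In human cells some ribosomal proteins, Rpl11 among them, are themselves modified by NEDD8.

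The sequence around the transcription start shows which members carry such a tract in the mouse annotation. RefSeq start windows of the build GRCm38.p6, an earlier build than the one named in the submitters' processing notes, were matched by symbol to 56 of the 76 members. The windows below hold 10 bases before the start and 20 bases from it, 5′ to 3′ on the gene's own strand. They are shown to set members with a tract at or near the start beside the members at either end of the order of differences. Capitals mark the tract, a C followed by at least 4 C or T, found within 5 bases of the start. The 3 windows with no capitals have no such tract. On the plus strand lie Rpl28 at chr7:4792955-4792984, Rplp2 at chr7:141447641-141447670, Rpsa at chr9:120127756-120127785 and Rpl26 at chr11:68901556-68901585. On the minus strand lie Rps6 at chr4:86857348-86857377, Rpl15 at chr14:18270967-18270996, Rpl35 at chr2:39005112-39005141, Rps18 at chr17:33955646-33955675, Rps26 at chr10:128626487-128626516 and Rpl23 at chr11:97782420-97782449.
Rps6: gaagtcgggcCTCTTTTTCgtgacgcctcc
Rpl15: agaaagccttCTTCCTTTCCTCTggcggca
Rpl35: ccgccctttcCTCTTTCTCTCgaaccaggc
Rps18: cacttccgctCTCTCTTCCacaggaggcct
Rpl28: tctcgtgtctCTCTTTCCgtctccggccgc
Rplp2: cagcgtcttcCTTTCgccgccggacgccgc
Rps26: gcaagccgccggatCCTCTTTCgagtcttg
Rpsa: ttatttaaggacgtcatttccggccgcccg
Rpl26: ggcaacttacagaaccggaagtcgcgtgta
Rpl23: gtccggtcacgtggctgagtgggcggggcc

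The tract was found at 29 of the 66 annotated starts of the members (43.9%), against 19.2% of the starts of the other kept genes. At the start base itself it was found at 19.7% of the members' starts, against 2.35% of the starts of the other kept genes. Tracts were 5 to 17 bases long, with a median of 8. In windows of 250 bases before to 50 bases after the start, the letters CCGGAA, searched on both strands, occurred at 48.5% of members' starts and 24.0% of the others. The letters AAGATGG, also on both strands, occurred at 16.7% and 6.64%, and TATAAA on the sense strand at 7.58% and 5.07%. Only 3 member starts held both CCGGAA and AAGATGG. These are matches of letters in an annotation, not sites used in these oocytes. A start placed a few bases off its true position loses the tract at its first base.

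Uba3 itself differed between the groups without overlap. On the authors' normalized log2 scale, Uba3 stood at 10.03, 10.16 and 10.36 in the Uba3 cKO libraries, against 11.37, 11.46 and 11.34 in the control libraries. Its difference, Uba3 cKO minus control, was -1.21 (SE 0.10), or 2.31-fold lower, and limma gave a Benjamini-Hochberg adjusted p of 2.07e-05. Of 17450 genes kept by a filter on low values, 437 fell and 984 rose at an adjusted p under 0.05. All 16 oocyte markers were kept by the filter. Their summed linear value was 555344, 493203 and 540962 in the Uba3 cKO libraries and 554340, 622403 and 601050 in the control libraries. Of these 16, 3 (18.8%) were called, Zp2 (-0.30) and Bmp15 (-0.25) lower and Dazl (0.40) higher, and the median difference was -0.10. The call of Zp2 ended without control library 3, that of Bmp15 without any single library other than control library 3, and that of Dazl without Uba3 cKO library 1 or 3 or control library 2 or 3 (adjusted p up to 0.211). Of 23 granulosa and cumulus markers 21 were also kept. The depth of each library is unknown, because the deposited values are not counts.

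Ribosomal protein mRNAs were abundant in both groups. The 75 kept members had a median level of 11.55 on the log2 scale, where the median over kept genes was 7.98, and 64 of them stood above 10. Rps16 was dropped by the filter, at 2.86, 2.91 and 2.83 in the Uba3 cKO libraries and 2.87, 2.87 and 2.94 in the control libraries. The other 75 reached the filter's linear value of 10 in all 6 libraries, so none was kept through 1 group alone. Together the 76 members held 1.03%, 1.21% and 1.03% of all summed linear values in the Uba3 cKO libraries and 1.14%, 1.298% and 1.19% in the control libraries. The means were 1.09% ± 0.10 in Uba3 cKO and 1.21% ± 0.08 in control (SD, n = 3 each), and the ranges overlap through Uba3 cKO library 2. In pools of whole oocytes, fewer cells of a type and less RNA per cell cannot be told apart.

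Only 2 of the 75 members were called, both lower in Uba3 cKO oocytes and both of the small subunit. That is 2.67% of the members, beside 8.14% of all kept genes called in either direction, 2.5% called lower and 5.64% called higher. The members' share of lower calls is thus near that of all kept genes, most of which lie at lower levels. Among the 5755 other kept genes within the 10th to 90th percentile of the members' levels, 3.70% were called lower and 7.61% higher. The members' share of lower calls, which rests on 2 genes, lies below that 3.70%. No member was called higher. At an unadjusted p under 0.05 there were 14 members, 12 of them with a negative difference and 2 with a positive one, which is 18.7% of the members beside 22.8% of all kept genes.

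Rpsa, the laminin receptor homolog that sits on the back of the small subunit near the mRNA exit channel, was called lower. It stood at 12.97, 13.11 and 12.87 in the Uba3 cKO libraries and 13.21, 13.50 and 13.30 in the control libraries. Every Uba3 cKO library was below every control library, and the gap between the nearest libraries was smaller than the SD of either group. The means were 12.98 ± 0.12 and 13.34 ± 0.15 (SD, n = 3 each) in Uba3 cKO and control. The difference was -0.35 (SE 0.10), or 1.28-fold lower, and limma gave an adjusted p of 0.0384. For Rpsa taken alone, the exact permutation p (two-sided) was 0.1, and a design of 3 against 3 cannot give a smaller one. Rpsa was taken for that test because an earlier look at these same data had called it. Its call ended when Uba3 cKO library 1 or 3 or control library 2 or 3 was left out, with differences of -0.42 to -0.27 over all 6 (adjusted p up to 0.161). It also ended without the intensity trend and under a correction for transcript length and GC content, which gave -0.29 (adjusted p = 0.0607).

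**Figure D1:**
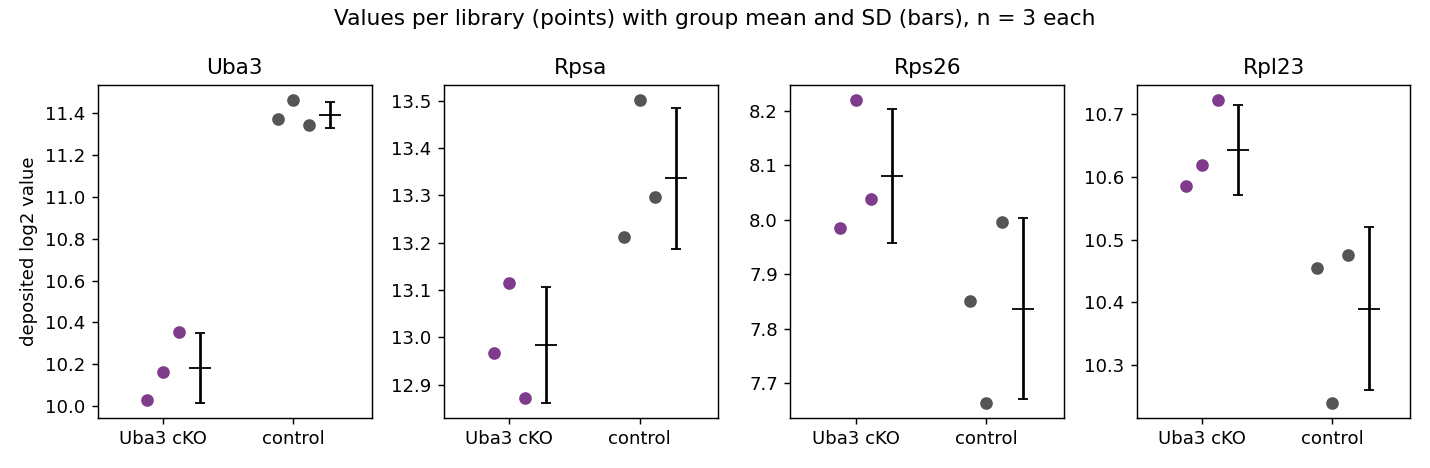
Deposited log2 values (vertical axes, each panel on its own scale) of Uba3, Rpsa, Rps26 and Rpl23 in the 3 Uba3 cKO libraries (left) and the 3 control libraries (right); points are libraries and bars are group means with SD. Rpsa does not overlap between the groups and was called lower, and Rpl23 does not overlap but was not called.

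Most members had a small negative difference that was not called on its own. The median difference of the 75 kept members was -0.15, beside -0.01 over all kept genes, which is a 1.11-fold lower level. Differences were below 0 in 66 members, or 88.0%, beside 51.8% of all kept genes. They ran from -0.35 to 0.25, and all 75 lay within 1.3-fold in either direction. The called ones included, 8 members were past 1.2-fold lower and none was past 1.2-fold higher. In 7 members every Uba3 cKO library was below every control library, which is 9.33% of the members beside 12.8% of all kept genes. Among the other kept genes at like levels it was 14.9%. Among them were Rpsa, Rps3, Rps15a, Rps13, Rpl13a and Rpl5. In 1 member, Rpl23, every Uba3 cKO library was above every control library, beside 15.1% of all kept genes.

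**Figure D2:**
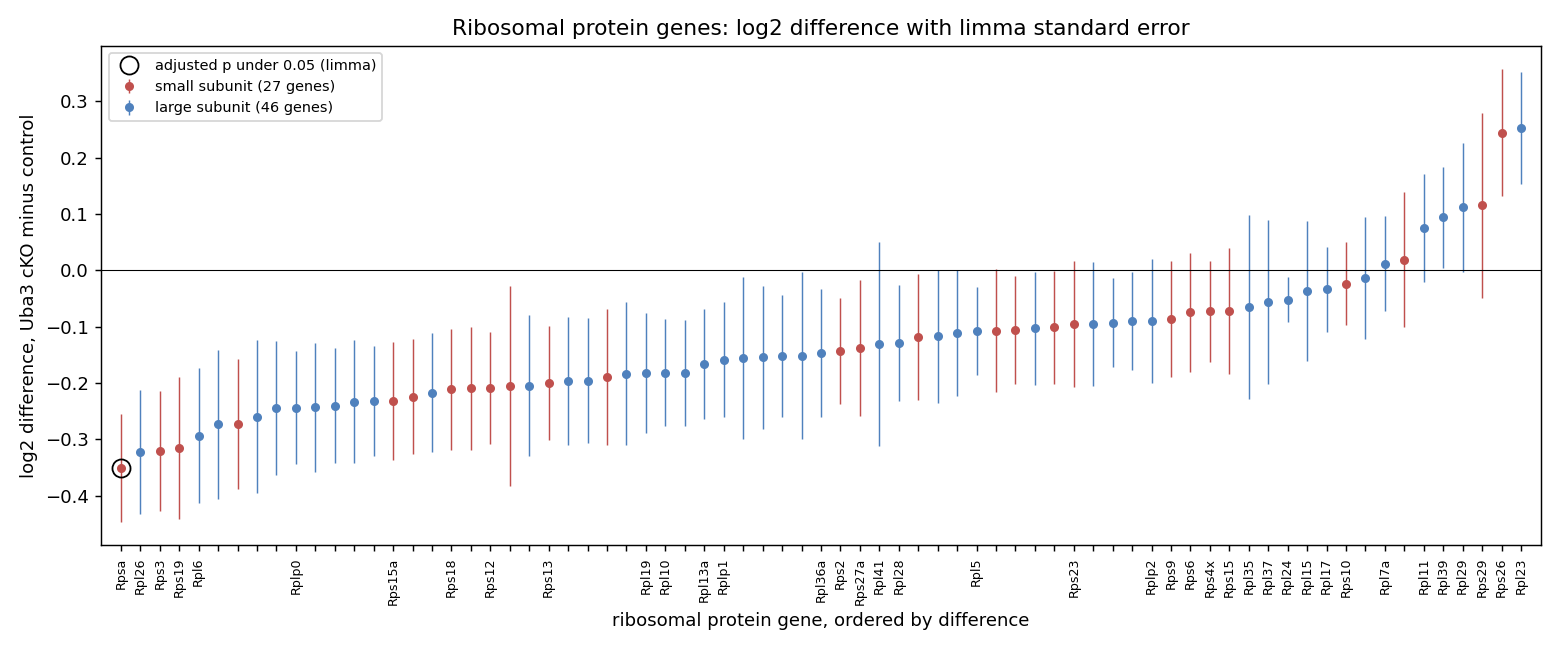
Log2 difference, Uba3 cKO minus control (vertical axis), of 73 of the 75 kept ribosomal protein genes in order of difference (horizontal axis, with genes the text describes named), with bars of 1 limma standard error, red for the small and blue for the large subunit. Most genes lie between -0.35 and 0, and Rpsa, circled, had an adjusted p under 0.05.

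Libraries of 1 group differed in the members' level by more than the groups did. The median deviation of the members from their own means over 6 libraries was -0.11, 0.04 and -0.13 in the Uba3 cKO libraries and -0.04, 0.21 and 0.07 in the control libraries. Control library 2 was the highest library for 46 of the 75 members, while control library 1 was the lowest for 21 members. Uba3 cKO library 1 was the lowest for 29 members and Uba3 cKO library 3 for 21, and Uba3 cKO library 2 for 1. Thus Uba3 cKO library 2 stood above control library 1 in its median. Without control library 2 the median difference was -0.10 and 0 members were called, where 4.47% of all genes were. Without control library 1 it was -0.22 and 7 of the 75 were called, all lower, where 9.38% of all genes were called in either direction. The share of all genes called lower in that fit was not taken, so these lower calls have no like background. Within groups the members had a median SD of 0.12 in Uba3 cKO and 0.17 in control, where the median over all kept genes was 0.09 in each group. The members lie at higher levels than most kept genes, and the SDs of genes at like levels were not compared.

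The order of the libraries by the summed level of the members was much like their order by the summed level of granulosa and cumulus markers, but not like that of the median marker. The summed linear value of the 76 members was 248133, 279166 and 248633 in the Uba3 cKO libraries and 271052, 315862 and 281441 in the control libraries. The summed linear value of the 23 granulosa and cumulus markers was 23191, 28479 and 22747 in the Uba3 cKO libraries and 25541, 34800 and 29751 in the control libraries. Both sums were highest in control library 2, as were the summed oocyte markers (622403) and the sum over all genes (24336404). In the oocyte marker and all-gene sums Uba3 cKO library 2 was the lowest. In the sums of the members and of the granulosa and cumulus markers it lay above control library 1. The median deviation of the 21 kept markers from their own means was -0.09, 0.16 and -0.18 in the Uba3 cKO libraries and -0.03, -0.06 and 0.03 in the control libraries, so that Uba3 cKO library 2, and not control library 2, was highest by the median. Inha, the inhibin alpha subunit, made up 17.9% of the marker sum, no marker was at exactly 0, and Ptx3 and Tnfaip6, markers of expanded cumulus, were below the filter. Of the 21 kept granulosa and cumulus markers, 2 fell (Inhba by 0.69 and Aldh1a1 by 1.02), 2 rose (Kitl by 0.44 and Fshr by 0.42) and 17 were not called, with a median difference of -0.04. Each of these 4 calls ended without control library 2, and each also without other single libraries (adjusted p up to 0.111). The 20 theca, stroma and luteal markers summed to 6824, 7056 and 5759 in the Uba3 cKO libraries and 7180, 7660 and 9264 in the control libraries, and of the 18 that were kept 7 fell and none rose. That is 38.9% called lower, beside 2.5% of all kept genes, and the median difference of these 18 was -0.43, with 17 below 0. Of 9 kept blood and immune markers 2 were called lower and none higher, with a median difference of -0.04 and 8 below 0. Of 9 kept endothelial markers 1, Tie1, was called lower and none higher, but the median was 0.01 and 6 lay above 0. The part of these other cells in the members' differences was not tested.

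Within a library, deviations also went with the length of the coding sequence, and in opposite directions in libraries of 1 group. Across the 75 kept members, Spearman's rho between coding length and deviation was -0.44, 0.38 and -0.03 in the Uba3 cKO libraries and 0.53, -0.09 and -0.36 in the control libraries. These are descriptions across genes that share a library and its depth. In control library 1 the 25 members with the shortest coding sequence (75 to 399 bases) had a median deviation of -0.14, against 0.04 for the 25 longest (576 to 1257 bases). In Uba3 cKO library 1 the order was turned round, with -0.07 for the shortest and -0.18 for the longest. The difference between the groups had a rho of -0.15 with coding length. The median difference was -0.15 in the shortest, -0.11 in the middle (405 to 564 bases) and -0.18 in the longest members. Without control library 1 these medians were -0.27, -0.13 and -0.17, and without control library 2 they were -0.07, -0.07 and -0.12. The mean log2 level of a member went with its difference at a rho of -0.34, and with its deviation at -0.45, 0.00 and -0.06 in the Uba3 cKO libraries and 0.42, 0.31 and -0.45 in the control libraries. GC content of the transcript had rho values between -0.22 and 0.18 in single libraries and 0.02 with the difference.

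**Figure D3:**
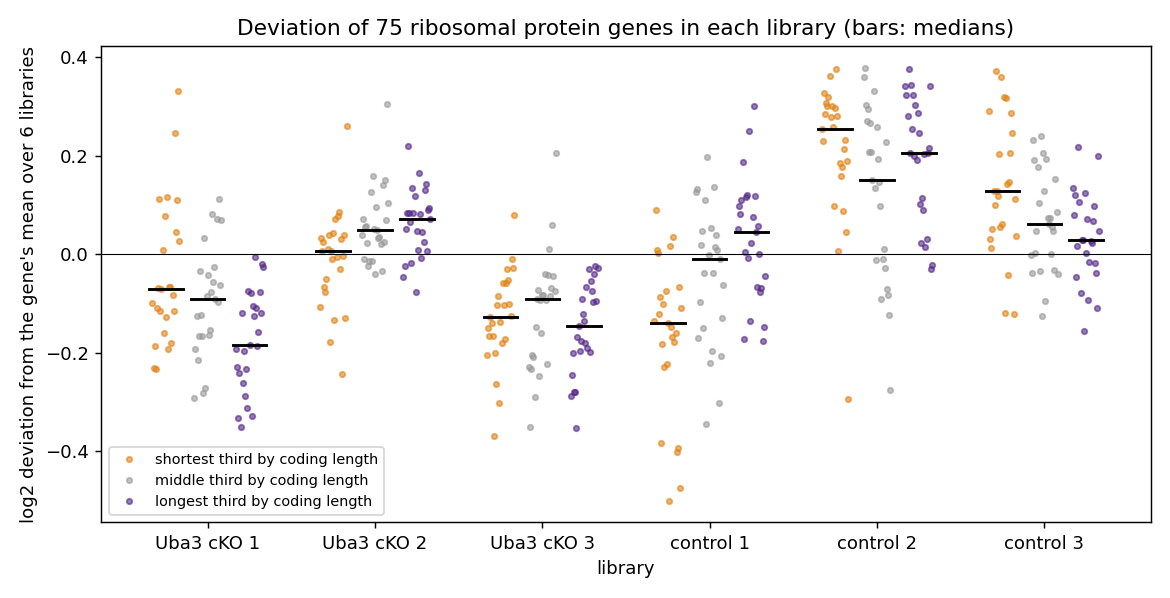
Deviation of each of 75 ribosomal protein genes from its own mean over 6 libraries (vertical axis, log2) in each library (horizontal axis, Uba3 cKO left), coloured by coding length in sets of 25 genes, with medians as bars. Control library 2 sits highest, and the shortest genes are lowest in control library 1, at a median of -0.14.

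Both subunits had about the same median difference. Of 29 kept small subunit members 2 were called lower, and of 46 large subunit members 0 were called. The median difference was -0.14 in the small subunit and -0.15 in the large subunit. Differences ranged from -0.35 to 0.24 among small subunit members and from -0.32 to 0.25 among large subunit members. Whether the subunits differ was not tested.

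Along the path of the mRNA through the small subunit, the 5 members at the exit channel had a median difference of -0.21 and included Rpsa, while Rps26 had a positive difference. The 3 members at the entry channel, Rps2, Rps3 and Rps9, had a median of -0.14 with none called. Rps3, which lies at the entry and takes part in unwinding mRNA, stood at 11.50, 11.88 and 11.63 in the Uba3 cKO libraries and 11.91, 12.11 and 11.95 in the control libraries. The groups did not overlap, but only by a margin of a few hundredths between Uba3 cKO library 2 and control library 1. Its difference was -0.32 (SE 0.11), with an adjusted p of 0.0851. The 2 members near the decoding centre, Rps15 and Rps23, had a median of -0.08. Rps6, the target of the S6 kinases that act downstream of mTOR, had a difference of -0.07, with 11.86, 12.16 and 11.92 in the Uba3 cKO libraries and 11.94, 12.22 and 11.997 in the control libraries. The groups overlap, and without control library 2 the sign turned, to 0.01.

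Rps19, the gene most often mutated in Diamond-Blackfan anaemia in humans, stood at 10.83, 11.10 and 10.68 in the Uba3 cKO libraries and 11.16, 11.40 and 10.99 in the control libraries. The groups overlap, since control library 3 lies below Uba3 cKO library 2. The difference was -0.32 (SE 0.13), with an adjusted p of 0.15. None of the 22 kept members mutated in that human disease was called, and their median difference was -0.13. Rps27a, which is made as a fusion to ubiquitin, stood at 10.87, 11.30 and 11.05 in the Uba3 cKO libraries and 11.34, 11.28 and 11.02 in the control libraries. The groups overlap across most of their range, with a difference of -0.14 (SE 0.12).

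In the large subunit, the 8 members around the exit of the peptide tunnel had a median difference of -0.18 with none called. Rpl26, which sits at the tunnel exit and is modified there by UFM1, had the lowest difference of the large subunit. It stood at 12.33, 12.66 and 12.39 in the Uba3 cKO libraries and 12.75, 12.98 and 12.62 in the control libraries. Uba3 cKO library 2 lay above control library 3, so the groups overlap, and the difference was -0.32 (SE 0.11), with an adjusted p of 0.0943. Rpl6 stood at 12.33, 12.66 and 12.30 in the Uba3 cKO libraries and 12.69, 12.95 and 12.53 in the control libraries, a difference of -0.29 (SE 0.12) with overlapping groups. Rpl39, a very small protein that lines the tunnel, had a positive difference of 0.09, with 11.72, 11.65 and 11.60 in the Uba3 cKO libraries and 11.55, 11.66 and 11.49 in the control libraries. Rpl5 and Rpl11 join 5S ribosomal RNA in a particle that can bind the p53 regulator Mdm2 when ribosome assembly is disturbed. Rpl5 stood at 13.17, 13.29 and 13.27 in the Uba3 cKO libraries and 13.34, 13.39 and 13.32 in the control libraries, without overlap, and its difference of -0.11 (SE 0.08) was not called (adjusted p = 0.443). Rpl11 stood at 10.88, 11.13 and 11.04 in the Uba3 cKO libraries and 10.97, 10.91 and 10.95 in the control libraries, with a difference of 0.07 (SE 0.10). The partners thus had differences of opposite sign, and neither was called.

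The P-stalk, which recruits the elongation factors, is formed by Rplp0 with Rplp1 and Rplp2. Rplp0 stood at 12.54, 12.86 and 12.63 in the Uba3 cKO libraries and 12.80, 13.05 and 12.90 in the control libraries, a difference of -0.24 (SE 0.10, adjusted p = 0.162) with overlap through Uba3 cKO library 2. Rplp1 stood at 11.30, 11.46 and 11.37 in the Uba3 cKO libraries and 11.38, 11.71 and 11.51 in the control libraries, a difference of -0.16. Rplp2 stood at 9.95, 10.10 and 10.01 in the Uba3 cKO libraries and 9.91, 10.15 and 10.27 in the control libraries, a difference of -0.09. The groups overlap in each of the 3 genes. The 4 X-linked members had a median difference of -0.11, and none was called. Rps4x stood at 13.30, 13.39 and 13.34 in the Uba3 cKO libraries and 13.31, 13.60 and 13.34 in the control libraries. Its difference of -0.07 turned to 0.02 without control library 2. Rpl10, which completes the large subunit late in its assembly, stood at 12.79, 13.02 and 12.84 in the Uba3 cKO libraries and 12.999, 13.22 and 12.98 in the control libraries, a difference of -0.18 with overlap. Rpl36a had a difference of -0.15, with 10.88, 11.05 and 10.87 in the Uba3 cKO libraries and 10.87, 11.30 and 11.07 in the control libraries.

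At the other end of the order, 9 members had a difference above 0 and none was called. Rpl23, which lies at the face between the subunits, stood at 10.59, 10.62 and 10.72 in the Uba3 cKO libraries and 10.45, 10.24 and 10.48 in the control libraries. The groups did not overlap, and the difference was 0.25 (SE 0.10), with an adjusted p of 0.144. Rps26, which contacts mRNA at the exit channel and in yeast is inserted by the chaperone Tsr2, stood at 7.99, 8.22 and 8.04 in the Uba3 cKO libraries and 7.85, 7.66 and 7.996 in the control libraries. Uba3 cKO library 1 lay just below control library 3, so the groups overlap, and the difference was 0.24 (SE 0.11, adjusted p = 0.217). Rps29, a small zinc-binding protein, stood at 9.53, 9.07 and 9.17 in the Uba3 cKO libraries and 8.72, 9.39 and 9.31 in the control libraries. Its difference of 0.11 (SE 0.16) turned to -0.02 without Uba3 cKO library 1 and to -0.09 without control library 1. Rpl29 stood at 10.998, 11.36 and 10.99 in the Uba3 cKO libraries and 10.93, 10.94 and 11.15 in the control libraries. Its difference of 0.11 (SE 0.12) turned to -0.01 without Uba3 cKO library 2.

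Although 1 ribosome holds about equal amounts of each protein, the levels per kilobase of transcript differed widely. Levels here are linear values divided by the length of the shortest principal transcript, averaged over 6 libraries. The 10th to 90th percentiles of the kept members spanned 1258 to 9245, a 7.35-fold range. That range depends on the annotated length taken, which for Rps3 was 1908 bases with 729 of them coding. Whether oocytes use these transcripts was not tested. Rps12 was the highest, between 12506 and 17285 over the 6 libraries. Rpl17 followed at 12226 to 12873 and Rpl26 at 9779 to 15373, and these 3 ranges overlap. At the low end Rps16 lay between 6.41 and 6.93, Rpl24 between 18.8 and 20.6 and Rps10 between 69.3 and 81.4, and none of these ranges overlaps another. Rps10 is a target of the ubiquitin ligase that marks collided ribosomes, and Rpl24 is the gene mutated in the Belly spot and tail mouse. Rpl28 and Rpl13a came next, with means of 179 and 194, and their ranges overlap. The order was almost the same in both groups, with a Spearman's rho of 0.99 between the Uba3 cKO and control means of the 76 members.

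**Figure D4:**
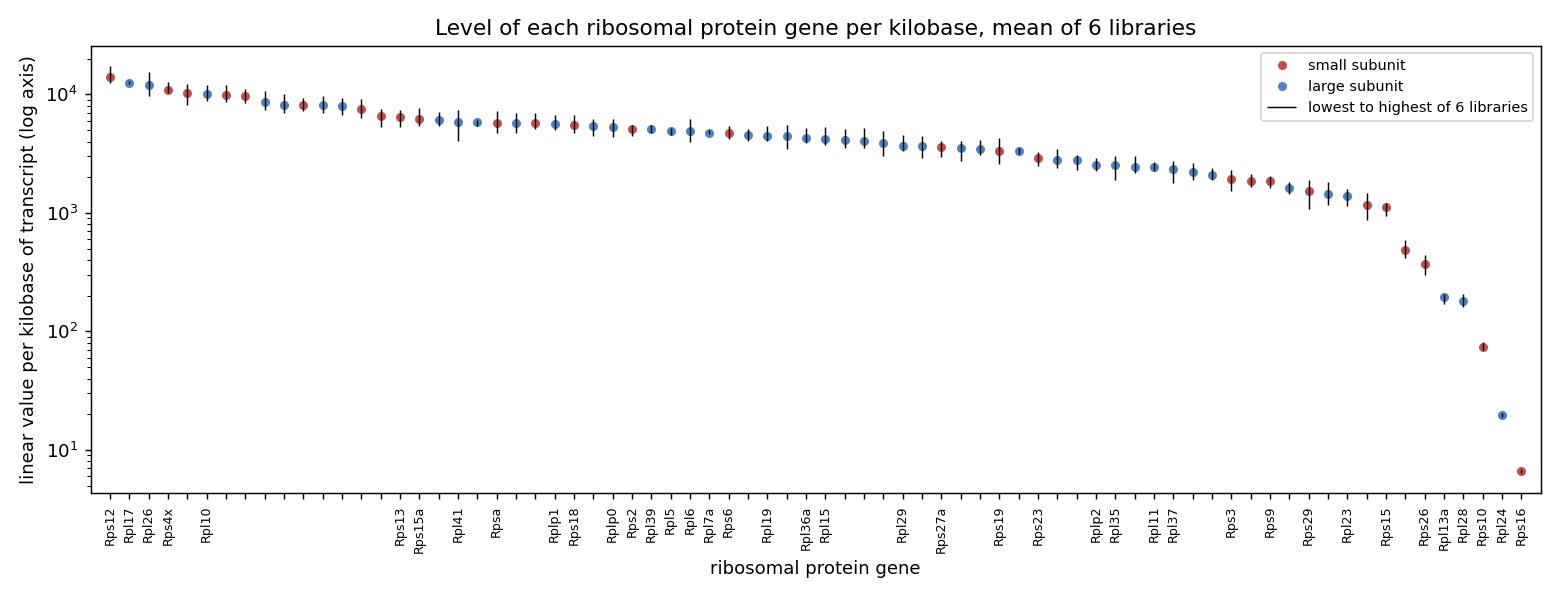
Linear value per kilobase of transcript (vertical log axis) of 74 of the 76 ribosomal protein genes in order of level (horizontal axis, with genes the text describes named); points are means of 6 libraries and lines run from the lowest to the highest library, red for the small and blue for the large subunit. Rps12, Rpl17 and Rpl26 are highest, and Rps10, Rpl24 and Rps16 lie well apart at the low end.

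Members at the ends of that order had overlapping groups. Rps12 had a difference of -0.21 (SE 0.10), with 12.69, 12.68 and 12.59 in the Uba3 cKO libraries and 12.67, 13.06 and 12.86 in the control libraries. Rpl17 varied little between libraries, with 13.22, 13.21 and 13.26 in the Uba3 cKO libraries and 13.28, 13.26 and 13.25 in the control libraries, a difference of -0.03. Rpl24 had a difference of -0.05, with 3.67, 3.75 and 3.69 in the Uba3 cKO libraries and 3.74, 3.72 and 3.80 in the control libraries. Rps10 had a difference of -0.02, with 5.11, 5.34 and 5.11 in the Uba3 cKO libraries and 5.21, 5.17 and 5.26 in the control libraries, and its sign turned to 0.03 under the length and GC correction.

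Ribosomal protein genes have many processed pseudogenes, and reads shared with them can be counted to either copy. The sources used here do not say how the authors treated reads with several matches. Pseudogenes at least 85% identical to a member over at least 60% of its coding length numbered 279, for 66 of the 76 members. Of these 70 were kept, with a median difference of 0.01. The kept copies of Rpl24 and Rpl37, with the ones below the filter, held 69.4% and 61.5% of the summed linear value of member and copies. That share was 47.8% for Rps16, 31.6% for Rpl41, 20.6% for Rpl29 and 19.9% for Rpl19, and it was under 1% for 43 members. For Rpl24, Rps16 and the other 4 the member's own level is therefore uncertain. A low share does not clear the other members, because reads left out of both member and copies do not enter it. The levels per kilobase above carry the same limit, also at their low end. The part of read matching in those levels was not tested.

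A few copies were called while the genes they copy were not. Of the 70 kept copies 4 rose and 1 fell, which is 7.14%, close to the 8.14% of all kept genes. Rpl19-ps3, which is 91.0% identical to Rpl19 where aligned, stood at 9.99, 9.64 and 10.23 in the Uba3 cKO libraries and 8.77, 8.59 and 8.45 in the control libraries. Every Uba3 cKO library lay far above every control library, and it rose by 1.35 (SE 0.14), a 2.55-fold change, with an adjusted p of 7.9e-05, where Rpl19 itself had a difference of -0.18. Gm5779, a copy of Rplp0, stood at 8.47, 8.41 and 8.55 in the Uba3 cKO libraries and 7.92, 7.66 and 7.81 in the control libraries, and it rose by 0.68. AC151293.1, a copy of Rpl29, stood at 7.66, 7.37 and 7.51 in the Uba3 cKO libraries and 8.33, 8.60 and 8.49 in the control libraries, and it fell by 0.96. These 3 calls held when any single library was left out. The other 2, Gm11989 (0.29) and Gm5621 (0.30), copies of Rpl7a and Rpl10, lost theirs without control library 2 or 3, and Gm11989 also without Uba3 cKO library 3 or control library 1.

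**Figure D5:**
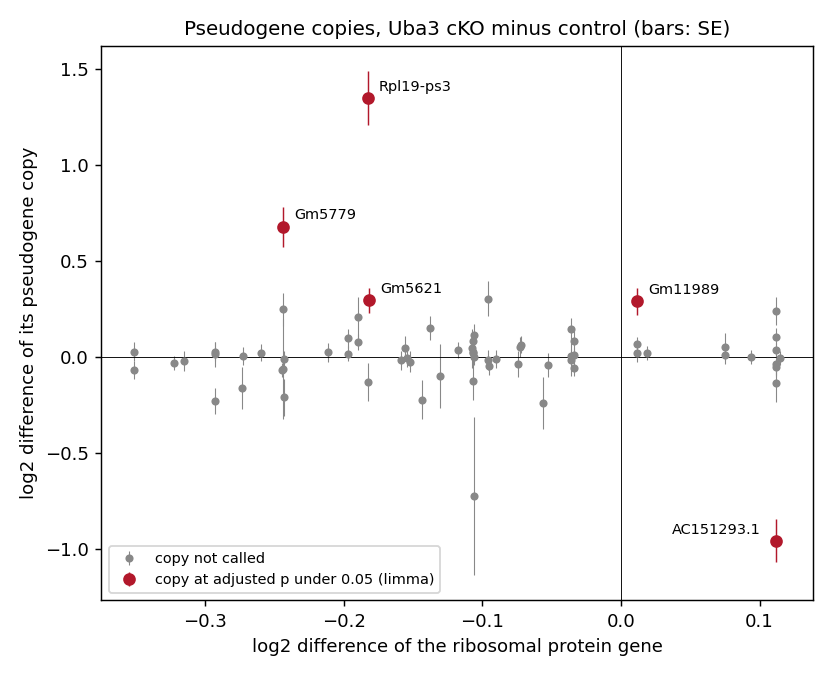
Log2 difference, Uba3 cKO minus control, of each kept pseudogene copy (vertical axis, bars of 1 limma standard error) against the difference of the ribosomal protein gene it copies (horizontal axis). Most copies lie near 0. Among the called copies Rpl19-ps3, Gm5779 and AC151293.1 stand apart at 1.35, 0.68 and -0.96. Gm6472, a copy of Rps7 that was not called, lies at -0.72 (SE 0.41).

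Ribosomal proteins whose symbols the rule does not take gave values like those of the members. Rack1, a scaffold on the small subunit, had a difference of -0.24 (SE 0.10, adjusted p = 0.161), and Fau, which encodes the small subunit protein eS30, had -0.12. Rps3a1, a small subunit protein gene chosen after its value was seen, had -0.17 (adjusted p = 0.374) and was not called either. Among the paralogs, which can replace a ribosomal protein in some tissues, 7 of 8 in the table were kept and none was called. Rpl7l1 had a difference of 0.27, Rpl39l, a testis paralog of Rpl39, -0.23, Rpl22l1 -0.19 and Rps27l -0.18. Rps27rt at -0.05, Rps4l at 0.03 and Rpl10l at -0.01 lay close to 0, and the signs of Rps4l and Rpl10l turned when single libraries were left out.

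Members with and without a tract had like medians. The 27 kept members with a tract had a median difference of -0.13, with 24 below 0, and the 28 matched members without one had -0.18, with 26 below 0. The 13 with a tract at the start base itself had a median of -0.13, with 13 below 0. Whether these sets differ was not tested. Rpsa has no tract in its window and fell, Rpl26 and Rpl23 have none and lie at opposite ends of the order, and Rps26 has one 4 bases past the start. Among 17 mRNAs outside the members that are known to carry such a tract, most of them for translation factors and with Rack1 and Fau included, none was called and the median difference was -0.04.

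Among the genes that make and watch over ribosomes, 6 were called, and the share called lay above the 8.14% of all kept genes in 1 of the 4 lists. It was 6.67% for RNA polymerase I, 2.56% for assembly factors, 13.3% for regulators and 5.26% for quality control. Of 15 RNA polymerase I subunits and factors 1 rose, Twistnb, a polymerase I subunit, by 0.42 (SE 0.09, adjusted p = 0.0150), and the median difference was -0.07. Of 78 ribosome assembly factors 2 fell, Nol9, a kinase that acts in ribosomal RNA processing, by 0.35 and Nip7, a processing factor, by 0.38, and the median was -0.06. Of 15 regulators of ribosomal protein mRNAs 2 rose, Larp4, which binds poly(A) tails, by 0.38 and Rptor, a subunit of mTOR complex 1, by 0.38, with a median of 0.02. Larp4 stood at 13.61, 13.56 and 13.70 in the Uba3 cKO libraries and 13.34, 13.27 and 13.11 in the control libraries. Of 19 genes of ribosome quality control and stress 1 fell, Eif2ak4, the kinase GCN2 that stalled ribosomes activate, by 0.37, with a median of 0.03. Each of these 6 calls ended without Uba3 cKO library 1 or 3 or control library 3, with adjusted p values of up to 0.174.

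The median difference of the cytosolic ribosomal proteins was close to that of the mitochondrial ones. The 74 mitochondrial ribosomal protein genes had a median difference of -0.14, with 5 called lower and 1 higher, among them Mrpl9, which fell by 0.74. The lower calls are 6.76% of the mitochondrial genes, beside 2.5% of all kept genes. In 24 of the 74 (32.4%) every Uba3 cKO library was below every control library, beside 12.8% of all kept genes and 9.33% of the cytosolic members. The 39 proteasome genes, chosen by symbol as Psma, Psmb, Psmc or Psmd and a number, had a median of -0.05 with none called. The difference between these sets was not tested.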

How the data were processed

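Per the labels' protocols, PicoPure RNA went into Illumina TruSeq RNA libraries that were read on a NovaSeq. The submitters' processing notes list DESeq2, featureCounts, STAR, fastp and the build GRCm39 and no versions. The authors deposited normalized log2 values for 28738 genes, from 0.0363 to 18.01, and the transform is not named in the table. If it shrinks low values, differences of low genes are understated. The sources used here do not state the strand setting.

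Symbols (found for 27660 IDs, 96.2%), chromosomes, transcript lengths and pseudogenes came from the GENCODE M21 annotation, which is of an earlier build. A filter kept the 17450 genes that reached a linear value of 10 in any 3 of the 6 libraries. The groups were compared on these log2 values by limma 3.58.1 (R 4.3.3) with an intensity trend, and a Benjamini-Hochberg adjusted p under 0.05 over all kept genes was a call. Adjusted p values come from this limma fit or, where an alternative or a left-out library is named, from the limma fit with that change. Differences are Uba3 cKO minus control. The limma fit was also run on simulated data with independent noise for each gene and library. That run cannot vouch for calls where genes share the deviation of a library. Copies were found with blastn 2.17.0 in the pseudogene transcripts, and their criteria were chosen after seeing the data.

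The members and lists were chosen with earlier results of these data known. Of 243 entries in 12 lists, 4 were not matched. Values are given for the called members, the 6 lowest and 6 highest differences, members of set roles, the 3 highest and 3 lowest levels per kilobase, and the called genes of lists that bear on the members. Some genes that this takes are not reported here. Alternatives covered the filter, the pseudocount, the scaling, the variance model, array weights, a replicate block, transcript length and GC content, the threshold and leaving out each library.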

Additional observations from a re-analysis of the deposited data

How the results depend on the processing

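Uba3 kept its direction and its call under every alternative, and the members' median difference stayed between -0.22 and -0.10. The number of members called was less stable. It was 1 with no filter on low values (4.45% of all genes called), 0 with no intensity trend (7.19%) and 1 with the replicate block (7.21%). With the correction for length and GC content it was 0 (8.37%). With that correction and the replicate block it was 1 (6.90%), Rpl26, which was not called without these alternatives. It was 3 with array weights (13.2%) and 4 at an adjusted p under 0.1 (12.5%). Leaving out each library gave between 0 and 7 calls of members, and between 618 and 1637 calls over all genes, of which there were 2298 with array weights and 2176 at an adjusted p under 0.1. Rpsa was no longer called with no intensity trend (-0.35, adjusted p = 0.0692), with the length and GC correction (-0.29) or with that correction and the replicate block (-0.29, adjusted p = 0.0642), and its difference ran from -0.42 to -0.27 when libraries were left out. Deviations of same-numbered libraries from their group means had correlations of -0.09, -0.20 and -0.05, and those of other pairs ran from -0.20 to 0.28. Deviations within a group of 3 sum to 0, so these values cannot tell whether the numbers pair the libraries. With single libraries left out, the sign turned within the range for Rps29 (-0.093 to 0.24), Rps10 (-0.10 to 0.016), Rps4l (-0.067 to 0.14), Rpl10l (-0.040 to 0.030), Rpl29 (-0.013 to 0.18), Rps6 (-0.16 to 0.010) and Rps4x (-0.13 to 0.018). It also turned with array weights for Rps4l (-0.0091), and under the length and GC correction, with and without the replicate block, for Rps10 (0.027). The causes were not tested. The depth of the libraries is unknown, and 3 libraries a group limit the differences that can be called.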
